A study of Rattus norvegicus with 3 samples.

Results

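Zinc, iron, copper and magnesium reach enzymes and transcription factors with the help of membrane transporters and small binding proteins, and the genes of that machinery are described here in cultured rat Schwann cell precursors, the embryonic glia of peripheral nerves. Members were all rows of the authors' gene table whose symbol belongs to the families Slc11a, Slc30a, Slc31a, Slc39a, Slc40a or Slc41a, together with the copper ATPases Atp7a and Atp7b and the metallothioneins Mt1a, Mt2A and Mt3. The rule found 37 genes of 17337 listed: 14 zinc importers, 10 zinc exporters and vesicle loaders, 4 copper genes, 3 magnesium genes, 3 iron genes and 3 metallothioneins. RNA was sequenced in 3 libraries, replicates 1 to 3, of untreated wild-type cells from dorsal root ganglia grown in a DMEM-based Sato medium, and they form a single group. Nothing in the labels states that each library had its own culture, and errors and p-values therefore measure a spread that may be technical. With no second condition, the data give levels within these cultures.

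Zinc moves into the cytosol, from outside or from organelles, through ZIP proteins (the Slc39a genes) and out of it through ZnT proteins (the Slc30a genes). Metallothioneins bind zinc and copper inside the cell, and the zinc-sensing transcription factor Mtf1 raises the transcription of the Mt1 and Mt2 genes and of the zinc exporter Slc30a1 when free zinc is high. Copper enters through Slc31a1 and is pumped by Atp7a or Atp7b into the secretory pathway, where copper enzymes such as lysyl oxidases are loaded, and mutations of the human gene ATP7A cause Menkes disease and a motor neuropathy. Iron taken up with transferrin leaves endosomes through Slc11a2 and leaves the cell through ferroportin, Slc40a1.

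Total counts were 14139074 to 15309526 per library, of which 27146 to 29831 fell on the members. The labelled cell type was checked with 13 precursor markers, all of them above 1 TPM (a count per exon base, brought to a common sum in every library), with Sox10 at 612 ± 26.0 TPM and Erbb3 at 581 ± 14.3 TPM (SD, n = 3). Their summed level was 10388 to 10608 TPM. All 8 fibroblast markers were above 1 TPM as well, with a summed level of 8465 to 8663 TPM. So were all 7 measured sensory neuron markers, which summed to 744 to 768 TPM, 5 of them at 100 TPM or more in each library. Of 10 macrophage markers 5 were above 1 TPM, 3 below and 2 neither, with a sum of 31.3 to 36.6 TPM, and of 6 endothelial markers 3 were above and 3 below, with a sum of 34.1 to 36.5 TPM. None of 5 measured erythroid markers was above 1 TPM, with a sum of 0.268 to 0.941 TPM and Hbb, Hba-a2 and Slc4a1 at 0. Which cells carried each transporter was not measured, and fewer cells of a type cannot be told apart from less RNA per cell in these bulk libraries.

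The sequences that carry the link between zinc and these genes are the promoters of the metallothioneins and of Slc30a1. Mt1a, Mt2A and Slc30a1 are shown as textbook targets of Mtf1, and Mt3 as their neighbour in the gene cluster, which is not known for the same induction by zinc. RefSeq's table for the GRCr8 build matched 30 of the 37 members, Mt1a through its RefSeq name Mt1, and Slc41a1, Slc30a7, Slc39a14, Slc30a10, Slc39a4, Slc11a1 and Slc30a8 were not matched. Each line gives the 250 bases before the gene start, 5′ to 3′ on the gene's strand, with capitals marking the core of the metal response element, searched as TGCACNC or TGCGCNC on both strands with overlapping matches counted.
Mt1a (chr19:10832976-10833225, minus strand): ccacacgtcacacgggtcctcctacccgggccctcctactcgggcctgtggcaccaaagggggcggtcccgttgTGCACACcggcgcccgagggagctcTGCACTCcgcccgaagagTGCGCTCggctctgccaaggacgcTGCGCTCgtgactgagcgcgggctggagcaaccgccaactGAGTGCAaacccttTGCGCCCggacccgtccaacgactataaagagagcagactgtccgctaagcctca
Mt2A (chr19:10838709-10838958, minus strand): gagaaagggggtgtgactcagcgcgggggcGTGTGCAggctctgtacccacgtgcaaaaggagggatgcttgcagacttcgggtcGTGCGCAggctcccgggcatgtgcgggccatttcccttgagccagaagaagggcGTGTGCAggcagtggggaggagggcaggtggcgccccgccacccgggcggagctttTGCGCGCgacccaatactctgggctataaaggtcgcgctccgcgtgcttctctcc
Mt3 (chr19:10856081-10856330, minus strand): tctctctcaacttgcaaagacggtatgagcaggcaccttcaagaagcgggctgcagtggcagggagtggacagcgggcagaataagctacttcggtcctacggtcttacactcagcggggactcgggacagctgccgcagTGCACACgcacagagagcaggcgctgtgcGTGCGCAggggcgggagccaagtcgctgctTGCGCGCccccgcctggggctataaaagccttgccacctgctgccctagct
Slc30a1 (chr13:106021769-106022018, plus strand): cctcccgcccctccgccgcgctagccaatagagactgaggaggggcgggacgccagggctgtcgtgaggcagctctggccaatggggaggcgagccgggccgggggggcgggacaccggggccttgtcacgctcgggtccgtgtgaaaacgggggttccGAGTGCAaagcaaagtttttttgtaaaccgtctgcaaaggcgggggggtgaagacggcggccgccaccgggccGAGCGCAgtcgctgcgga

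The core was found 6 times before Mt1a, 4 times before Mt2A, 3 times before Mt3 and 2 times before Slc30a1. At least 1 match was held by 20.6% of all 33469 windows, and 4 or more by 0.266%. Among the members, 16 of 34 windows (47.1%) held a match, and some genes have more than 1 window. By gene, 15 of 30 (50%) held a match. The set of all windows was not matched to the members in base composition, and the difference in shares was not tested. Members with 4 or more matches were Mt1a, Mt2A and the zinc importer Slc39a7, whose matches partly overlap each other. The genes without a match included Slc39a6, Slc39a10, Slc31a1, Atp7a, Slc11a2 and Slc40a1, and these are not the full list. Genes with a match ranged in level from Slc30a2, with no count, to Slc39a1, the highest member. A match is a stretch of letters and not a shown binding site.

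By limma against 1 TPM with Benjamini-Hochberg adjustment over all genes with a count, 28 of the 37 members were above 1 TPM, 5 were below and 4 had no count and were not tested. Of the 33 members tested 84.8% were above and 15.2% below, against 78.4% and 17.8% of all 13345 genes tested. Of the 37 members 10.8% had no count, against 23.0% of all genes listed. edgeR called 28 members above and 5 below, against 78.3% of all genes above and 16.8% below. Each library held these 28 members (75.7%) at 1 TPM or more, against 60.6% of all 17337 genes listed, and 21 (56.8%) reached 10 TPM in each, against 47.4%. These shares are a description, and no test set them against other genes. The median of the 33 members with a count was 25.7 TPM and that of all genes tested was 21.7 TPM. All members together held 1516 ± 15.2 TPM, of which 61.8 ± 0.323% belonged to zinc importers, 20.0 ± 0.0431% to zinc exporters and vesicle loaders, 9.88 ± 0.453% to copper genes, 5.07 ± 0.0856% to magnesium genes, 2.37 ± 0.0771% to iron genes and 0.890 ± 0.179% to metallothioneins.

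**Figure D1:**
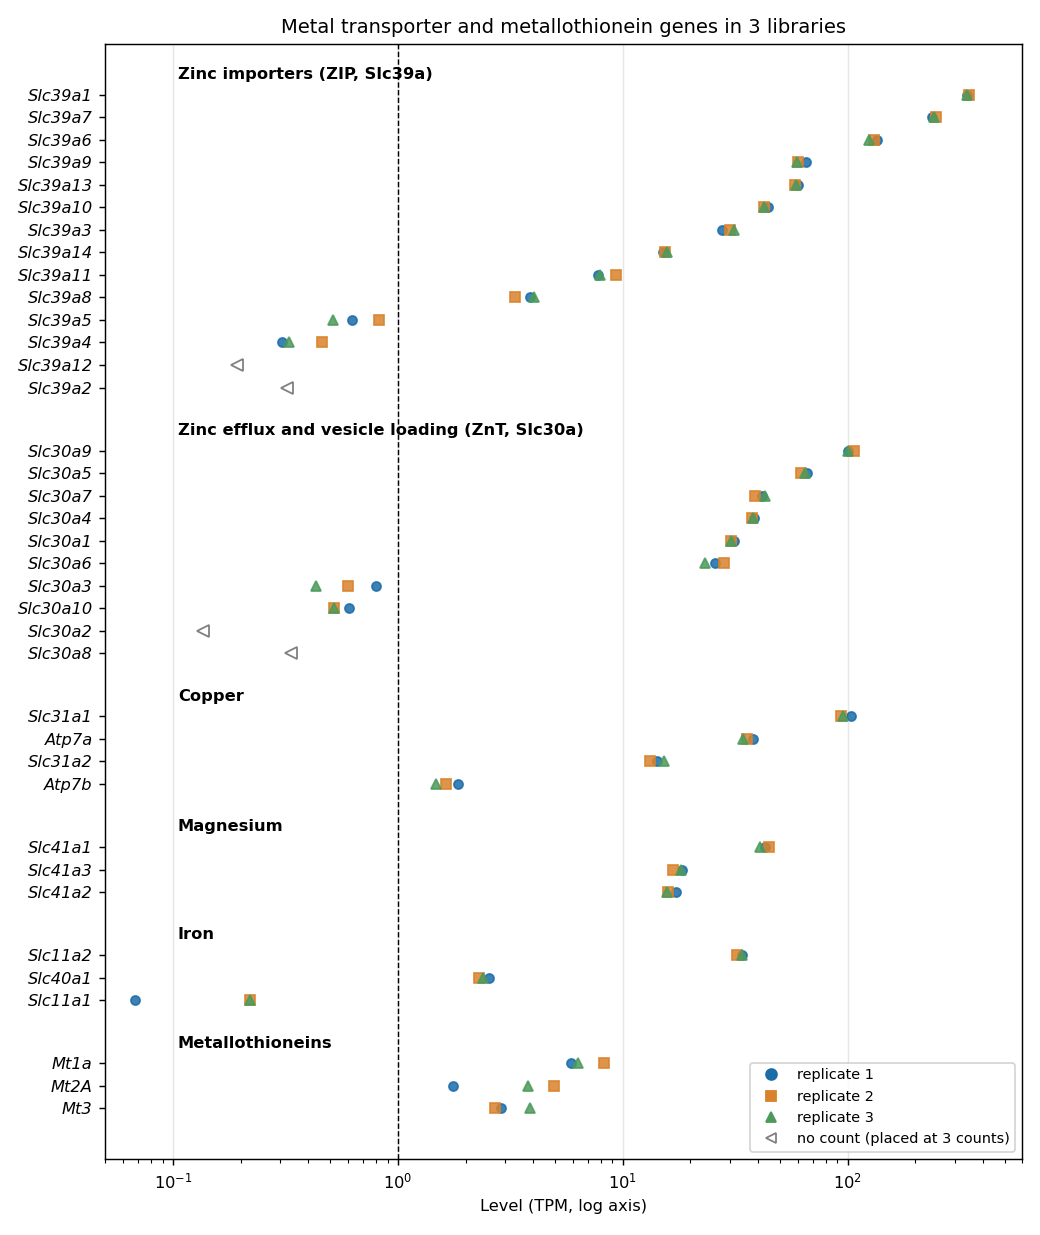
Level of each of the 37 genes in TPM (log axis) in replicates 1, 2 and 3, grouped by metal and ordered by mean level within a group, with the dashed line at 1 TPM and open triangles for genes with no count, placed at the level that 3 counts would give. The 3 libraries lie close together for genes above 10 TPM, and the zinc importer Slc39a1 is the highest at 342 TPM.

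A few abundant genes made up most of the ZIP transcript level. Slc39a1, the ZIP1 importer of the plasma membrane, was the highest of all members, at 339, 348 and 339 TPM in replicates 1, 2 and 3 (342 ± 5.26 TPM, SD, n = 3), above 96.3% of all genes tested. Slc39a7, which encodes the ZIP7 protein that releases zinc from the endoplasmic reticulum and Golgi, followed at 238, 246 and 241 TPM. Slc39a6, a plasma membrane importer of the LIV-1 subfamily, was at 135, 131 and 124 TPM. The ranges of these 3 genes did not overlap in any library, and together they held 76.3 ± 0.368% of the summed ZIP level of 936 ± 10.2 TPM. In the rn6 coordinates of the deposited table Slc39a1 spans 189609800 to 189615367 of chromosome 2 (plus strand, 4 exons) and Slc39a7 spans 3819416 to 3822788 of chromosome 20 (minus strand, 7 exons).

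A middle tier of ZIP genes lay between 3.74 and 61.7 TPM on average. Slc39a9, a Golgi-associated member, was at 65.1, 60.2 and 59.8 TPM, and Slc39a13, whose human counterpart is mutated in a form of Ehlers-Danlos syndrome, was at 59.9, 58.2 and 59.0 TPM. Slc39a9 was the higher within each library, but the ranges over all libraries overlapped. The 95% counting intervals, 59.1 to 64.6 and 57.0 to 61.2 TPM, overlapped as well, so their order is not resolved. Slc39a10, the close relative of Slc39a6 with which it can form a complex, was at 43.1 ± 0.973 TPM, and Slc39a3, related to Slc39a1, at 29.6 ± 1.90 TPM. Slc39a14 and Slc39a8, which also carry manganese and iron, were at 15.4 ± 0.338 and 3.74 ± 0.373 TPM, and Slc39a11 was at 8.34 ± 0.834 TPM. By limma these 10 ZIP genes from Slc39a1 to Slc39a8 were above 1 TPM, with adjusted p-values up to 2.61e-06.

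Of the 14 ZIP genes, 2 were below 1 TPM and 2 had no count. Of all genes tested 17.8% were below, and of all genes listed 23.0% had no count. Slc39a4, the intestinal importer whose human counterpart is mutated in acrodermatitis enteropathica, was at 0.306, 0.460 and 0.328 TPM and below 1 TPM by limma (adjusted p = 1.17e-04). Slc39a5, a basolateral transporter of gut and pancreas, was at 0.622, 0.823 and 0.514 TPM and also below 1 TPM by limma (adjusted p = 0.0097). The tested log2(TPM + 1) of Slc39a5 stood at -0.28 ± 0.08 SE relative to its value at 1 TPM. Its limma call was lost without replicate 1 (adjusted p = 0.0972) and without replicate 3 (adjusted p = 0.0635), with a range of 0.00812 to 0.0972 over all alternatives. Slc39a12, a brain ZIP, and Slc39a2 had no count in any library, where 3 counts would correspond to 0.183 to 0.197 TPM and 0.306 to 0.328 TPM.

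Of the 10 ZnT genes, 6 were above 1 TPM, 2 were below and 2 had no count. Among all genes tested 78.4% were above and 17.8% below, and 23.0% of all genes listed had no count. Slc30a9, linked to mitochondrial zinc, was the highest at 100.3, 107 and 101 TPM and held 33.8 ± 1.16% of the summed ZnT level of 304 ± 2.75 TPM. Slc30a5, which pairs with Slc30a6 to load zinc into enzymes of the early secretory pathway, was at 66.2, 62.0 and 64.4 TPM, against 25.6, 28.3 and 23.3 TPM for Slc30a6. Slc30a7, which does the same as a homodimer, was at 41.7, 38.9 and 43.1 TPM. The endosomal Slc30a4 was at 38.3, 37.7 and 37.8 TPM and Slc30a1, the exporter of the plasma membrane and target of Mtf1, was at 31.3, 30.3 and 30.3 TPM. These 6 genes were above 1 TPM by limma, with adjusted p-values up to 3.41e-10.

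Slc30a3, which fills synaptic vesicles with zinc, was at 0.801, 0.602 and 0.430 TPM, and Slc30a10, a manganese exporter, at 0.603, 0.519 and 0.518 TPM. Both were below 1 TPM by limma (adjusted p = 0.0073 and 9.12e-04). Slc30a8, the transporter of insulin granules, and Slc30a2, known from the mammary gland, had no count, and 3 counts would correspond to 0.318 to 0.341 TPM and 0.129 to 0.138 TPM. Summed over members, the 14 zinc importers stood at 3.08 ± 0.0107 times the 10 ZnT genes in level (SD over the 3 libraries), a ratio to which the 3 highest ZIP genes gave most. With the genes without a count included, 2 in each family, the median was 22.5 TPM for zinc importers and 28.2 TPM for ZnT genes. With those genes left out, the median of zinc importers was the higher. The order of the medians therefore depends on how silent genes are treated.

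Metallothioneins were low. Mt1a, the ubiquitous zinc- and copper-binding form, was at 5.92, 8.22 and 6.35 TPM, Mt2A at 1.77, 4.94 and 3.79 TPM and Mt3, the form known from brain, at 2.88, 2.71 and 3.86 TPM. Replicate 1 was lowest for Mt1a and Mt2A, and the ranges of Mt2A and Mt3 overlapped. These values rest on 56, 28 and 25 counts over the 3 libraries, with 95% exact Poisson intervals of 5.14 to 8.84, 2.30 to 4.996 and 2.03 to 4.64 TPM for counting error alone. All 3 were above 1 TPM by limma, with adjusted p = 4.96e-07 for Mt1a, 0.001 for Mt2A and 2.50e-05 for Mt3. With no filter on low values the limma adjusted p of Mt2A was 0.041. Of all genes tested 78.4% were above 1 TPM. For the 3 metallothioneins 3 counts would correspond to 1.04 to 1.16 TPM, so 1 TPM lies below that floor. Their genes lie side by side on the minus strand of rn6 chromosome 19, Mt1a from 11301991 to 11303007, Mt2A from 11307966 to 11308740 and Mt3 from 11324708 to 11326112, each with 3 exons and with 389, 383 and 376 bases of exon. The GRCr8 gene table names 5 further Mt1 copies, 4 of them pseudogenes, and how reads with several matches were counted is not stated, which leaves the levels of Mt1a and Mt2A uncertain. Mtf1 itself was at 6.15, 6.45 and 6.17 TPM.

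The copper genes were led by the importer. Slc31a1, the CTR1 protein of the plasma membrane, was at 104, 93.8 and 95.8 TPM and held 65.3 ± 0.453% of the summed level of the 4 copper genes, 149.8 ± 7.30 TPM. Atp7a was at 37.9, 35.7 and 34.4 TPM, while Atp7b, the liver ATPase of Wilson disease, was at 1.84, 1.64 and 1.48 TPM. Slc31a2, which regulates copper in endosomes and lysosomes, was at 14.2, 13.2 and 15.3 TPM. By limma all 4 were above 1 TPM, beside 78.4% of all genes tested, and Atp7b had adjusted p = 0.0014. Slc31a1 lies on the plus strand of rn6 chromosome 5 from 78222504 to 78249358, and Slc31a2 on the same strand upstream from 78120606 to 78131111.

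The transcript of the iron exporter was low beside that of the endosomal iron transporter. Slc11a2, the DMT1 protein, was at 33.8, 32.3 and 33.9 TPM, whereas the only cellular iron exporter known, Slc40a1, was at 2.55, 2.29 and 2.38 TPM. Both were above 1 TPM by limma (adjusted p = 1.16e-11 and 2.65e-05). Slc11a1, a transporter of macrophage phagosomes, had 1, 3 and 3 counts, or 0.0680, 0.219 and 0.219 TPM, and was below 1 TPM by limma (adjusted p = 1.75e-05). The 10 macrophage markers in the same libraries ran from Fcgr1a at 0.0773 TPM to Lyz2 at 9.85 TPM, with 5 above 1 TPM, and their part in the level of Slc11a1 was not tested. The 3 magnesium genes were all above 1 TPM, beside 78.4% of all genes tested. Slc41a1, a sodium-dependent magnesium exporter, was at 43.0, 44.9 and 40.8 TPM. Slc41a3 was at 18.3, 16.7 and 18.1 TPM and Slc41a2 at 17.3, 15.9 and 15.7 TPM. The ranges of Slc41a3 and Slc41a2 overlapped.

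Related members were compared within each library by their log2 ratio, after 0.1 TPM had been added to both. Of 26 pairs, 22 had the first gene higher in 3 of 3 libraries, 3 had the second gene higher, and the sign of Mt2A to Mt3 differed between libraries. The exact sign-flip permutation test, two-sided, gave p = 0.25 for each of the 25 pairs with a constant sign and p = 1.0 for Mt2A to Mt3, and 0.25 is the smallest p that 3 libraries allow, so no ratio can pass 0.05. Slc39a1 exceeded Slc39a3 by 3.53 ± 0.09 (SD, n = 3), Slc39a6 exceeded Slc39a10 by 1.59 ± 0.04, Slc39a7 exceeded Slc39a13 by 2.03 ± 0.05 and Slc39a14 exceeded Slc39a8 by 2.02 ± 0.14. Slc30a5 exceeded its partner Slc30a6 by 1.32 ± 0.17 and Slc30a7 by 0.64 ± 0.05. Atp7a exceeded Atp7b by 4.37 ± 0.08, Slc31a1 exceeded Slc31a2 by 2.77 ± 0.12 and Slc41a1 exceeded Slc41a2 by 1.39 ± 0.09. The ratio of Slc40a1 to Slc11a2 was -3.74 ± 0.05.

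Ratios to near-silent genes rest on few counts. Slc11a2 to Slc11a1 was 198-fold in mean TPM, with a 95% exact interval of 95.9 to 493 for counting error and 7 counts of Slc11a1 in all. Slc30a4 to Slc30a3 was 62.1-fold (40.99 to 99.3) and Slc30a1 to Slc30a10 was 56.0-fold (38.1 to 85.9). With the second gene set at 3 counts in each library, Slc39a1 was at least 1067-fold higher than Slc39a2, Slc39a6 at least 676-fold higher than Slc39a12, Slc30a4 at least 281-fold higher than Slc30a2 and Slc30a7 at least 124-fold higher than Slc30a8. The log2 ratios of these 4 pairs are set by the TPM added, and that of Slc39a1 to Slc39a2 was 11.74 with 0.1 TPM and 8.42 with 1 TPM. The counting interval included a ratio of 1 for Slc39a4 to Slc39a5 (0.296 to 1.01), Slc41a3 to Slc41a2 (0.997 to 1.18) and Mt2A to Mt3 (0.624 to 1.99). Mt2A to Mt3 had a mean log2 ratio of 0.05 ± 0.76, and -0.35 without replicate 2.

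**Figure D2:**
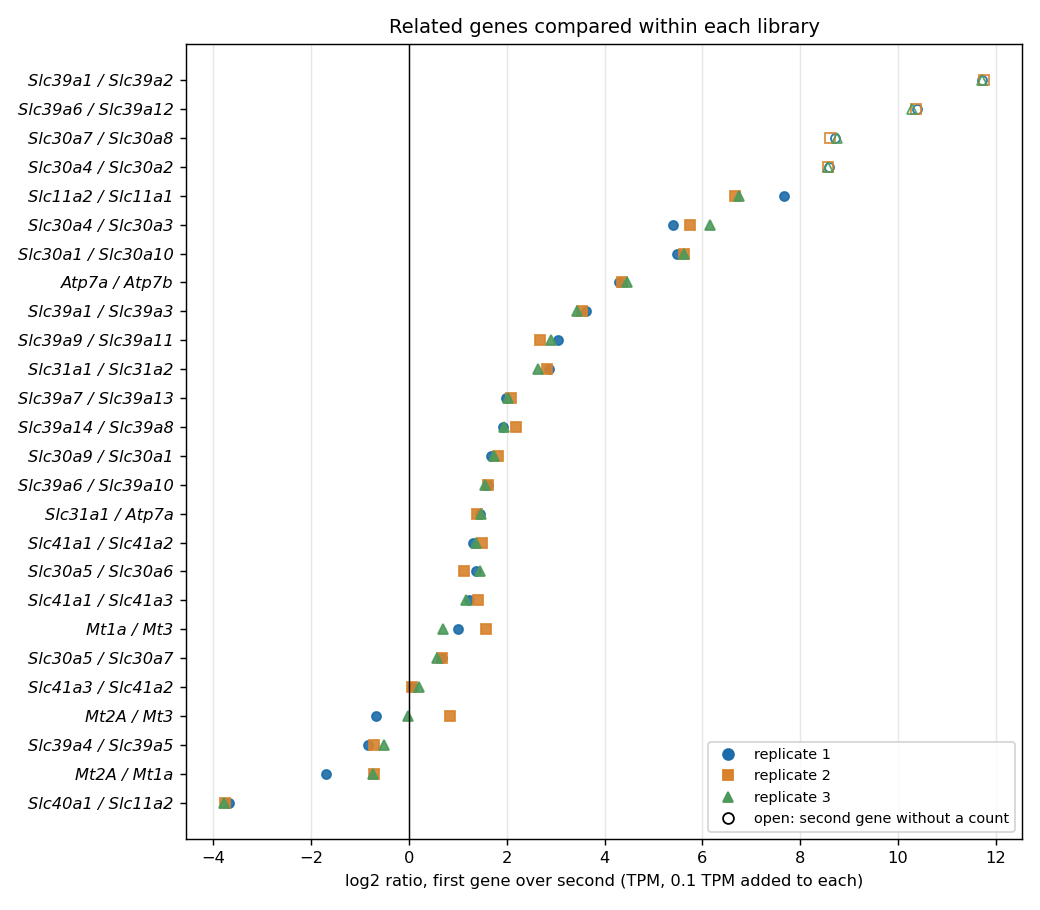
Log2 ratio of the first gene over the second (TPM with 0.1 TPM added) in replicates 1, 2 and 3 for 26 pairs of related genes, ordered by their mean, with open symbols where the second gene had no count. The position of open symbols is set by the TPM added, filled ones run from 7.02 on average for Slc11a2 to Slc11a1 down to -3.74 for Slc40a1 to Slc11a2, and only Mt2A to Mt3 has libraries on both sides of the line at 0.

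Other genes that handle the same metals were described from a list of 65 symbols, of which 59 were measured. By limma 49 of the 59 were above 1 TPM, 6 below and 1 neither, and 3 had no count and were not tested. Among all genes tested 78.4% were above and 17.8% below, a base that leaves out genes without a count. The 24 measured iron genes had 19 above, 4 below and 1 without a count, with the ferritin subunits Fth1 and Ftl1, which store iron, at 3163 ± 120.3 and 1211 ± 113 TPM. The iron chaperone Pcbp2 was at 391 ± 13.1 TPM and Ncoa4, which delivers ferritin to lysosomes, at 111 ± 1.68 TPM. The transferrin receptor Tfrc was at 29.0, 27.6 and 28.1 TPM, close to Slc11a2, and the ferroxidases Cp and Heph, partners of Slc40a1, were at 60.2 ± 0.839 and 30.1 ± 1.01 TPM. Tfrc, Cp and Heph were chosen for mention after their values were seen. Below 1 TPM in every library were Hfe, Lcn2, Tfr2 and Hephl1, whose counts all came from replicate 2. Hamp, the hormone that removes Slc40a1 from membranes, had no count, where 3 counts would correspond to 1.13 to 1.21 TPM.

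All 16 measured copper genes were above 1 TPM by limma, beside 78.4% of all genes tested, and 15 reached 10 TPM in each library, beside 47.4% of all genes listed. The lysyl oxidases Loxl1 and Loxl2, which crosslink collagen, were at 648 ± 30.9 and 199 ± 5.04 TPM, and the superoxide dismutases Sod1 and Sod3 at 534 ± 7.65 and 515 ± 12.1 TPM. Atox1, the chaperone that hands copper to Atp7a, was at 159 ± 0.961 TPM and was also chosen after its value was seen. The fibroblast markers given above, among them Col1a1 at 3842 ± 64.6 TPM, were present in the same libraries, and their part in the level of the lysyl oxidases was not tested. Of the 14 measured magnesium genes 12 were above 1 TPM, led by Magt1 at 105 ± 4.47, Tusc3 at 96.9 ± 3.59, the channel kinase Trpm7 at 55.6 ± 2.73 and Nipa2 at 53.4 ± 0.383 TPM. Nipal4 was below, at 0.230 ± 0.0848 TPM, and Nipal1 was neither, at 1.60 ± 0.747 TPM. In the short zinc list Mcoln1, a lysosomal channel, was at 51.7 ± 2.78 TPM. The zinc-sensing receptor Gpr39 had 1 count over the 3 libraries, and Tmem163 and Mt4 had none. Here 3 counts would correspond to 0.225 to 0.242 TPM for Tmem163 and 1.06 to 1.14 TPM for Mt4.

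**Figure D3:**
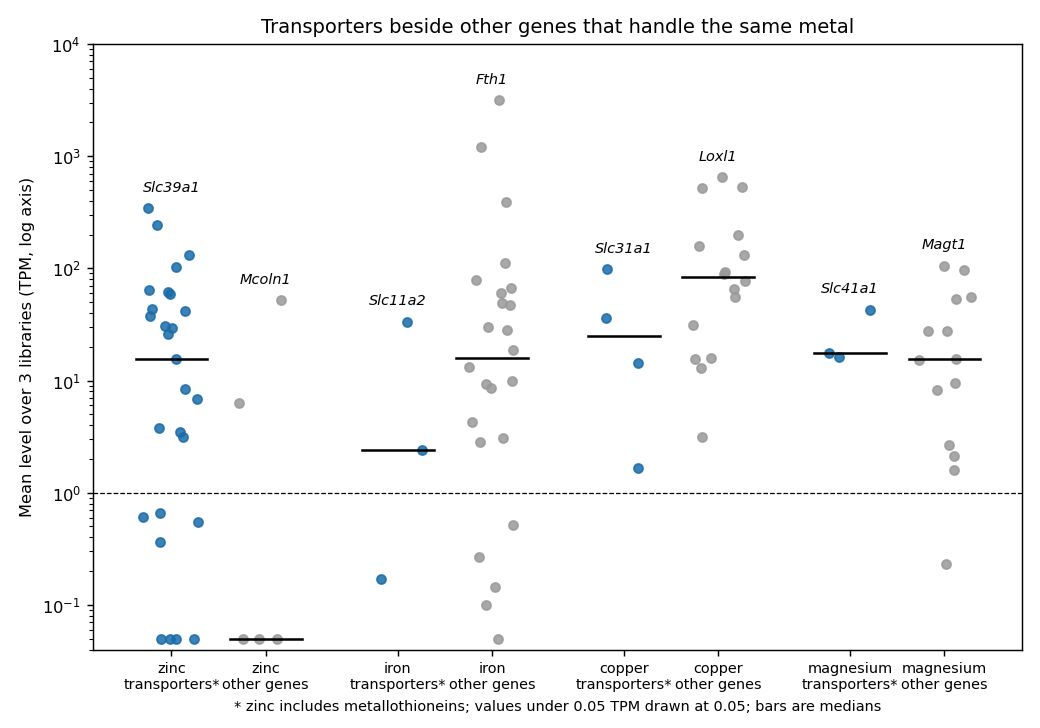
Mean level over the 3 libraries in TPM (log axis) of each transporter or metallothionein gene (blue) and of the other listed genes of the same metal (grey), with bars for medians, the dashed line at 1 TPM and the highest gene of each column named. Metallothioneins stand in the zinc column, and values under 0.05 TPM are drawn at 0.05 TPM. Slc39a1 leads the zinc column at 342 TPM, while Fth1 leads the iron genes at 3163 TPM.

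Levels were close between libraries. Among the 21 members with a mean of 10 TPM or more, the highest library exceeded the lowest by at most 1.21-fold, for Slc30a6, and the median coefficient of variation was 4.11%, against 3.84% over the 8372 genes of that level. In the order of levels, 16 of the 32 neighbouring pairs of members with a count had overlapping ranges. The spread between libraries was above the spread that counting alone gives for 14 of 33 members and over 1.5 times it for 5. With so few libraries, counting error alone can also put some members above it. The same share over all genes was not computed, and extra spread was not tested. Slc39a6 varied by 4.11% where counting gives 1.90%, and Slc30a6 by 9.65% where counting gives 5.39%. Mt2A varied most among members above 1 TPM, by 45.9% where counting gives 35.4%. No member shares an exon base with another listed gene, and none is listed at more than 1 place in the genome.

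**Figure D4:**
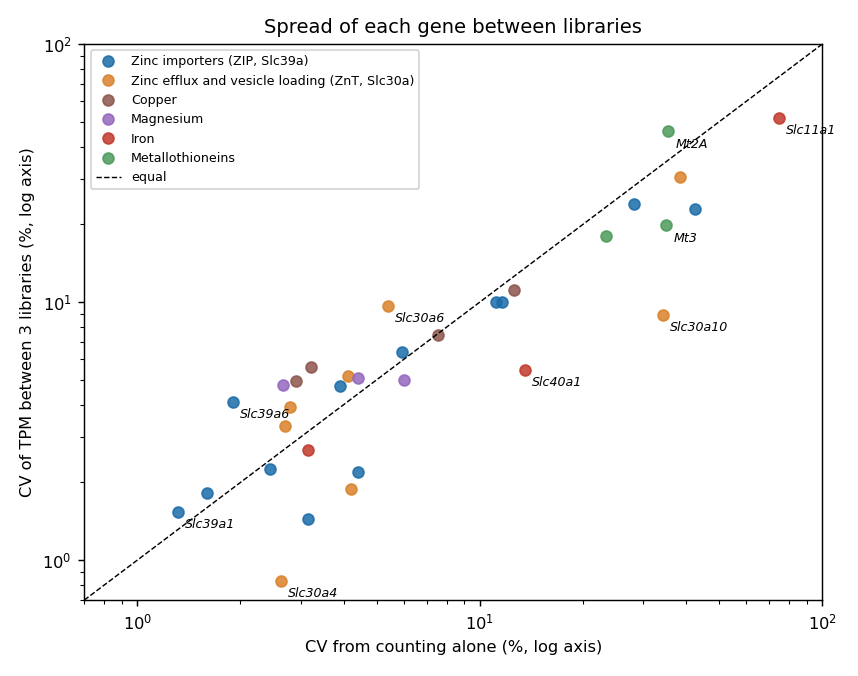
Coefficient of variation of TPM between the 3 libraries (%, log axis) against the coefficient that counting alone would give (%, log axis) for the 33 genes with a count, coloured by group, with the dashed line where both are equal. Low genes such as Slc11a1 and Mt2A sit at the upper right, and Slc39a6 and Slc30a6 lie above the line.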

How the data were processed

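RNA of the 3 libraries was prepared with a stranded, poly(A)-selecting Illumina kit, per the labels' protocols. The authors deposited raw counts per gene and TPM. The submitters' processing notes name STAR 2.5.2b, Subread and rn6. The annotation and strand setting used for counting are not stated there, and reads of antisense partners cannot be told apart. The deposited values per length served no test, 6 columns of totals were not used, and 2 unnamed rows were dropped. The deposited TPM equal counts per exon length, scaled per library, within 0.0005 TPM. Genes with a count in at least 1 library were tested as log2(TPM + 1) against 1 TPM with limma 3.58.1 (R 4.3.3), using its moderated test with a mean-variance trend. The test was two-sided, and a gene was called at an adjusted p (Benjamini-Hochberg) under 0.05. The pseudocount makes low genes look closer to 1 TPM. Alternatives used other pseudocounts, filters, scalings (edgeR 4.0.16, DESeq2 1.42.0), left-out replicates and edgeR's quasi-likelihood F on counts with a length offset, formed against a null of 1 TPM. The limma step was tested on simulated data. Counting intervals and floors of 3 counts cover counting error only, as reads carry no molecular identifiers. Members and lists were chosen with earlier results of these data known. Every member is accounted for. Those at 10 TPM or more in each library, those under 1 TPM and those in pairs are named, with the 4 highest and the silent genes of the other lists.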

Additional observations from a re-analysis of the deposited data

How the results depend on the processing

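Over the calls of the 33 tested members, 394 alternative values kept their direction and their side of the threshold, and 2 did not. Those were of Slc39a5 without replicate 1 and without replicate 3 (-0.27 and -0.22 in log2(TPM + 1) relative to its value at 1 TPM). The number of members above 1 TPM was 28 under every alternative run. With no filter on low values 9 members were below 1 TPM, since the 4 without a count then enter, and 6235 of all genes, against 1372 where the mean had to reach 0.1 TPM. Without each replicate in turn, members below 1 TPM numbered 4 to 5, pairs with the first gene higher 22 to 23, other metal genes above 49 to 50 and below 5 to 6, and all genes above 10340 to 10468 and below 1980 to 2125. Family sums then ran from 931 to 941 TPM for zinc importers, 303 to 305 for ZnT genes, 145.7 to 153 for copper, 76.1 to 78.0 for magnesium, 35.7 to 36.5 for iron and 12.3 to 14.9 for metallothioneins. Leaving cytosolic ribosomal protein genes out of the scaling raised log2(TPM + 1) by a median of 0.138 over the genes with a count. It gave sums of 1034, 335.5, 165.5, 84.99 and 39.7 TPM for zinc importers, ZnT, copper, magnesium and iron genes. Ratios of counts not divided by length turned the sign for Slc31a1 to Atp7a (-0.28) and Slc41a3 to Slc41a2 (-0.88), where the second gene is longer. The order of the genes in these pairs therefore rests on the division by length. Mt2A to Mt3 ran from -0.35, without replicate 2, to 0.41, without replicate 1. Counting members from a mean of 1 TPM made the largest ratio between libraries 2.79, that of Mt2A. With 3 libraries, depth limits the metallothioneins and the members below 1 TPM most. No paired analysis was possible because the series has a single group.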
